A study of Mus musculus with 5 samples.

Results

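The pre-B-cell receptor components described here are the surrogate light chain genes Igll1, Vpreb1 and Vpreb2, the related gene Vpreb3, and the signalling chain genes Cd79a and Cd79b. They were taken as every array probe that the platform annotation assigns to 1 of these 6 symbols. That gave 8 of 45018 features on the array, of which 33653 had a single gene symbol. Igll1 and Vpreb3 had 2 probes each and the other genes had 1. All 8 probes passed the filter on dim probes.

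RNA was measured on 5 one-colour (Cy3) Agilent arrays of mouse pro-B cells, an early precursor stage of the B lineage, from fetal liver. Embryos were taken 16.5 days post coitum and the cells were grown with interleukin-7 on OP-9 stromal cells. All cultures, controls included, received 4-hydroxytamoxifen for 24 hours (2 mM as the labels state it), which switches on the ER-Cre recombinase, and then 4 further days of culture. The control group had the genotype Ebf+/fl, with 1 floxed Ebf1 allele (n = 2, called control 3 and control 6 after the numbers in their titles). The group called deleted had the genotype Ebf fl/fl, with both alleles floxed (n = 3, called deleted 4, 5 and 7). The controls can therefore also lose an allele. The labels give the floxed genotype and not a measured deletion per culture, and they do not say whether cultures of a group came from separate embryos, so p-values measure the spread between these samples. The titles carry another number, 111 for the controls and 93 for the deleted samples, and what it stands for cannot be told apart from the genotype.

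The pre-B-cell receptor is the first antigen receptor complex of the B lineage. It pairs the immunoglobulin mu heavy chain with a surrogate light chain made of VpreB and lambda 5, in place of a rearranged light chain, and signals through the Ig-alpha and Ig-beta chains. Its appearance marks the step from pro-B to pre-B cells, and the surrogate light chain genes are active before a light chain gene has been rearranged. Ebf1, with the E2A proteins encoded by Tcf3, is known to activate the genes of this complex.

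All levels are log2 intensities minus the array's 75th percentile, so a level of 0 is the 75th percentile of all features on that array. A gene with several probes is given by its brightest one unless the dim one is named. A log2 change is the difference of mean levels, deleted minus control, with its standard error (SE) from limma, fitted over 13419 genes, and adjusted p-values are Benjamini-Hochberg values over those genes with a threshold of 0.05. Of the 6 genes, 4 were lower in deleted cells, 0 were higher and 2 did not pass. Over all tested genes 8.74% were called lower and 8.58% higher, a split that moved from 49.5% higher among called genes to 38.6% without scaling between arrays and to 56.4% with median scaling. The 4 lower genes were the surrogate light chain genes and Vpreb3. Cd79a and Cd79b were the 2 that did not pass. At the same 4 genes the deleted arrays all lay below both controls, which held for 21.2% of tested genes, and 51.7% of tested genes had groups without overlap in one direction or the other.

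The deleted gene itself was read by 3 probes that differed. The Ebf1 probe for AK036716 stood at -1.47 and -1.30 in the controls and at -4.19, -5.01 and -4.02 in deleted 4, 5 and 7. The groups did not overlap there, with a log2 change of -3.02 (SE 0.35, adjusted p = 0.0037 in the limma fit of all 22647 tested probes). The brightest Ebf1 probe, for NM_007897, had a log2 change of -0.25 (95% interval -0.59 to 0.10, adjusted p = 0.30) and the probe for AK042875 one of 0.44 (adjusted p = 0.27). The groups did not overlap at these probes either, lower in deleted cells at NM_007897 and higher at AK042875. Of all tested probes, 21.6% lay lower without overlap. No position of the probes with respect to the floxed exons was given in the sources used here, and a probe outside them would not check the deletion.

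Upstream sequences were read for 5 of the 6 genes from RefSeq on GRCm38.p6. The 250 bases before the annotated start are shown for 3 genes that fell together and for Cd79a, whose promoter holds a well-known Ebf1 site, so that the letters can be compared with the changes. Each runs 5′ to 3′ on the strand of the gene, and capitals mark matches to the motifs named after the sequences. Igll1 is chr16:16863986-16864235 on the minus strand, Vpreb1 chr16:16869256-16869505 on the minus strand, Vpreb3 chr10:75948050-75948299 on the plus strand and Cd79a chr7:24897247-24897496 on the plus strand.
Igll1: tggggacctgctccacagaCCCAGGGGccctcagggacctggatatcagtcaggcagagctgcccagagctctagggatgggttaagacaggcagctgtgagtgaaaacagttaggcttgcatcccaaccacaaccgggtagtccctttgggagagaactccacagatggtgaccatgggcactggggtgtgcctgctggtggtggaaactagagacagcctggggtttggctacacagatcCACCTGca
Vpreb1: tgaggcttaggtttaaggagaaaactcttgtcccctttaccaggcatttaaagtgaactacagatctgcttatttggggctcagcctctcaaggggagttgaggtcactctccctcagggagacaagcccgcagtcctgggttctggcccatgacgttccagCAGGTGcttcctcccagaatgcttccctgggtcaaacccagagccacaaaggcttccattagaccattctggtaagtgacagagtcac
Vpreb3: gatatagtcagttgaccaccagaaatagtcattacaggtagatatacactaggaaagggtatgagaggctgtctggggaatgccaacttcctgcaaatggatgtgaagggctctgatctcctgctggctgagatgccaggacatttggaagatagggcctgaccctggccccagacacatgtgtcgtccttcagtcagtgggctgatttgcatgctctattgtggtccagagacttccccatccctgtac
Cd79a: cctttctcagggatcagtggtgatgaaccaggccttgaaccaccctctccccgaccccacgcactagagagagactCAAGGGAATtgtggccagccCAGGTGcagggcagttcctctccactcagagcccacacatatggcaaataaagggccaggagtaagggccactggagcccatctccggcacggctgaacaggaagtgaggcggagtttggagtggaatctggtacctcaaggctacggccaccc

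Of the motifs searched on both strands, the core of the Ebf1 palindrome, CCCNNGGG, was found once in Igll1, at bases -231 to -224 from the start, and in 11.9% of 32526 upstream windows of that length. The longer palindrome, the same core with a T before it and an A after it, was in 0 of the 5 member windows and in 0.787% of all windows. The site known from Cd79a, CAAGGGAAT, was in the Cd79a window, at -174 to -166, in no other member window and in 0.224% of all windows. The E-box CAGGTG, a motif bound by E2A proteins, was in 17.3% of all windows. It was in Igll1 at -8 to -3, in Vpreb1 at -88 to -83 and in Cd79a at -154 to -149. The Vpreb2 match was at -232 to -227. The Ikaros core TGGGAA was in the Vpreb2 window alone among the members, at -64 to -59, and in 21.6% of all windows. The Vpreb3 window held none of the 5 motifs. None of the 5 motifs was in the windows of all 4 lower genes. Only matches to these letters within the upstream windows were searched. The Ebf1 palindrome core was not found in the Cd79a window either, though that window holds the known Ebf1 site. A missing match therefore does not show that a gene lacks a site. Whether the 4 lower genes share a bound site was not tested.

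Vpreb1 and Vpreb2 were aligned over longer windows of 300 bases, which add the 50 bases after the start. They are copies there over 156 bases, from base -106 of Vpreb1 to the end of its window, with 3 mismatches and no gap (98.1% identity). The annotated starts differ, since the Vpreb1 start aligns with base -144 of Vpreb2. The upstream windows searched for motifs therefore do not cover the same part of the copies. The E-box of both genes lies in the copied stretch. The Vpreb2 Ikaros core lies past the base aligned with the Vpreb1 start, outside the Vpreb1 window searched. The 106 aligned bases before the Vpreb1 start are shown because they make the copies visible, with the 2 differing bases in capitals. Vpreb1 is chr16:16869256-16869361 on the minus strand and Vpreb2 chr16:17980315-17980420 on the plus strand.
Vpreb1: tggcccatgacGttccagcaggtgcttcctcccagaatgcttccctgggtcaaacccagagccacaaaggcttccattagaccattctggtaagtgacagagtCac
Vpreb2: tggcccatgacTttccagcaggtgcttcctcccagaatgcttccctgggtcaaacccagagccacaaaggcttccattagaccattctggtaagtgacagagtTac

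Igll1 encodes lambda 5, the constant-region-like part of the surrogate light chain. Its level was 6.70 in control 3 and 5.98 in control 6, and -0.23, 2.47 and 3.62 in deleted 4, 5 and 7. Every deleted array lay below both controls, and deleted 4 lay furthest below. The mean fell from 6.34 ± 0.51 (SD, n = 2) to 1.95 ± 1.98 (SD, n = 3), a log2 change of -4.39 (SE 1.02, limma adjusted p = 0.032). A more negative fold change was found for 49 of the 13419 tested genes, or 0.365%.

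The dim Igll1 probe, annotated to the same transcript, went the same way. It read 0.25 and -0.37 in the controls and -6.39, -4.94 and -3.51 in deleted 4, 5 and 7. Its log2 change was -4.89 (SE 0.77, limma adjusted p = 0.010 over all probes), and deleted 4 was below the 40th percentile of its array, -5.48. With values under that percentile raised to it, the log2 change was -4.58 (adjusted p = 0.0043). It did not pass without control 3 (adjusted p = 0.080). The gap between the Igll1 probes was 6.16 to 7.40 log2 units on the 5 arrays.

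Vpreb1 encodes the variable-region-like part that pairs with lambda 5. Its level was 9.02 and 8.50 in controls 3 and 6, and 4.29, 6.33 and 6.89 in deleted 4, 5 and 7. The groups did not overlap, and deleted 4 was again the lowest array. The control mean was 8.76 ± 0.37 (SD, n = 2) and the deleted mean 5.84 ± 1.37 (SD, n = 3), a log2 change of -2.92 (SE 0.72, limma adjusted p = 0.037). In control 3 the probe read an intensity of 205689, on an array whose highest feature was 484240. Whether this bright spot was saturated was not tested. In deleted cells the level still lay at or above the 96.4th percentile of features on every array, so the transcript was lower without becoming dim.

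Vpreb2 encodes a protein of the same family and role. Its level was 5.49 and 4.76 in the controls and -0.07, 1.62 and 2.85 in deleted 4, 5 and 7. The groups did not overlap and the order of the deleted arrays was that of Igll1 and Vpreb1. The log2 change was -3.66 (SE 0.77, limma adjusted p = 0.024), a 12.6-fold fall. Vpreb1 and Vpreb2 are near-identical copies, and their probes may share signal, so their changes are not separate measurements with certainty.

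Vpreb3 encodes a VpreB-like protein that binds newly made heavy chain inside the cell and is not part of the surface complex. Its bright probe read 8.15 and 8.0 in the controls and 3.71, 5.38 and 5.75 in deleted 4, 5 and 7. The log2 change was -3.13 (SE 0.56, limma adjusted p = 0.015). The dim Vpreb3 probe read 6.01 and 5.95 in the controls and 1.30, 3.03 and 3.54 in the deleted arrays, with a log2 change of -3.36 (SE 0.60, adjusted p = 0.016 over all probes). The groups did not overlap on either probe, and the controls differed from each other by less than at any other lower member.

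Cd79a encodes Ig-alpha, a signalling chain that the pre-B-cell receptor shares with the mature receptor. Its level was 1.07 and 2.43 in controls 3 and 6, and 1.51, 1.69 and 2.09 in deleted 4, 5 and 7. All deleted arrays lay between the controls, which stood 0.68 log2 units either side of their mean. The log2 change was 0.01 (SE 0.39, 95% interval -0.93 to 0.95, limma adjusted p = 0.99). The interval leaves room for a change of nearly 1 log2 unit either way, so the probe gives no evidence that Cd79a stayed equal.

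Cd79b encodes Ig-beta, the partner chain of Ig-alpha. Its level was 8.19 and 8.51 in the controls and 8.19, 8.65 and 8.09 in deleted 4, 5 and 7. The groups overlapped, with a log2 change of -0.04 (SE 0.23, 95% interval -0.60 to 0.51, limma adjusted p = 0.93). The probe was at or above the 99.74th percentile of features on every array. The sign of the Cd79b change turned with median scaling, and that of Cd79a turned with quantile normalization and without scaling.

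**Figure D1:**
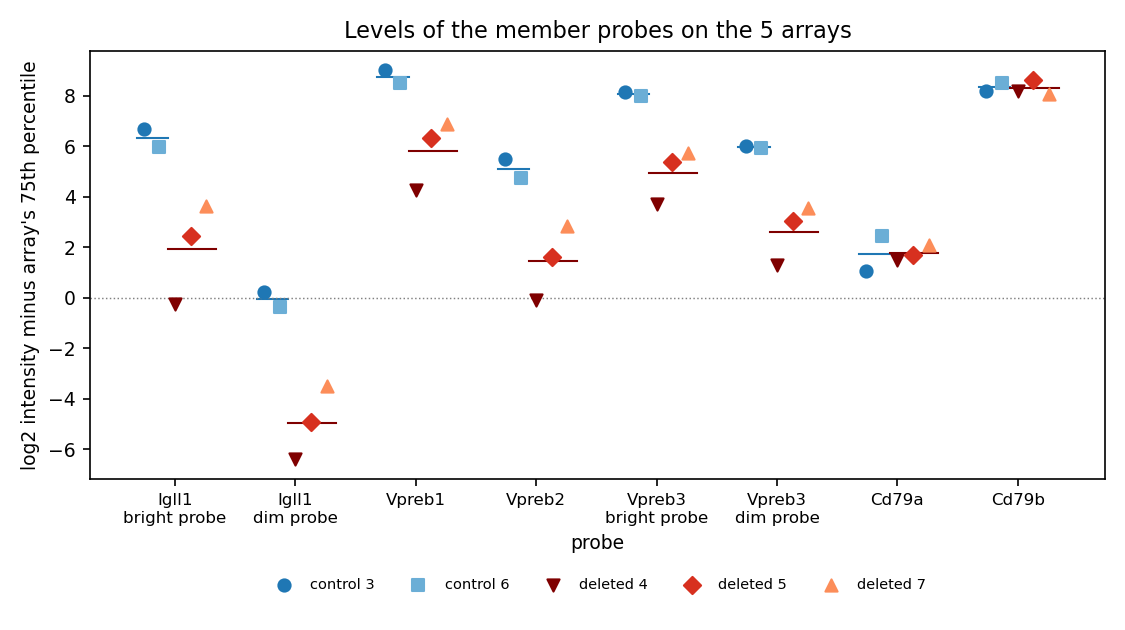
Levels of the 8 member probes on the 5 arrays, as log2 intensity minus the array's 75th percentile. Points are single arrays and horizontal bars are group means; at the 6 probes of Igll1, Vpreb1, Vpreb2 and Vpreb3 all deleted arrays lie below both controls, and at Cd79a and Cd79b the groups overlap.

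Over all probes, 6 of the 8 were lower and 0 higher, against 7.69% of the 22647 tested probes called lower. The groups did not overlap at those same 6 probes, against 21.6% of tested probes that lay lower without overlap. By size the order of the falls was Igll1, Vpreb2, Vpreb3 and Vpreb1, but each difference between neighbours in this order was smaller than either gene's standard error. In bulk RNA, fewer cells that express a gene and less RNA per cell cannot be told apart.

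**Figure D2:**
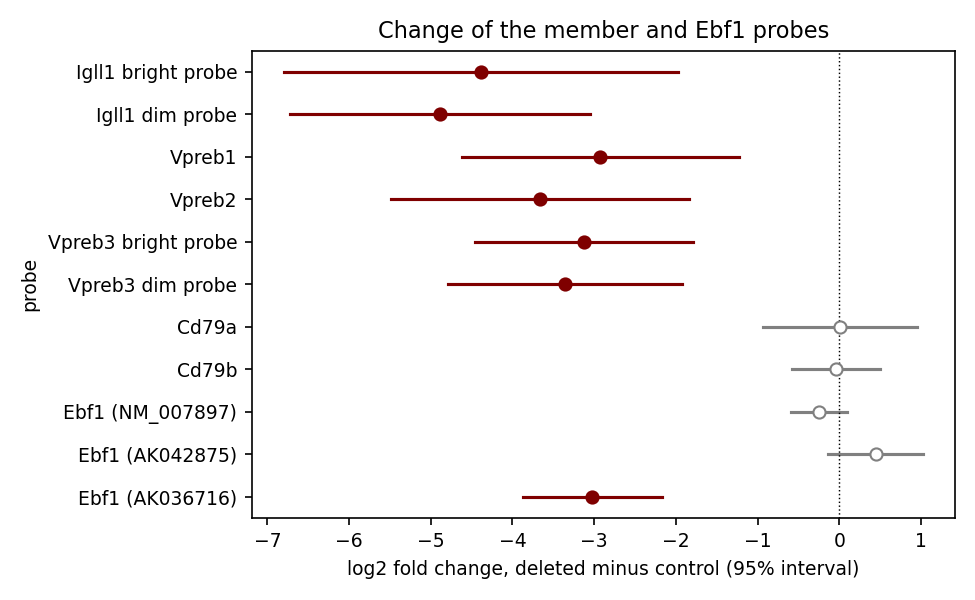
Log2 fold change, deleted minus control, of the 8 member probes and the 3 Ebf1 probes, with 95% intervals from the limma fit over all probes. Filled points passed an adjusted p of 0.05; the 6 probes of Igll1, Vpreb1, Vpreb2 and Vpreb3 lie between -4.89 and -2.92 (-4.58 for the dim Igll1 probe with its value below the 40th percentile raised to it), while Cd79a and Cd79b lie at 0.01 and -0.04.

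These calls rested on few arrays. Without control 3 or without control 6 none of the 4 genes passed, though each still had a negative log2 change. Igll1, Vpreb1 and Vpreb2 had adjusted p = 0.17, 0.19 and 0.14 without control 3, and 0.081, 0.091 and 0.061 without control 6, while Vpreb3 had 0.089 and 0.054. Without deleted 5 only Vpreb3 passed. Vpreb3 was also the gene that kept its call most often, in 15 of 17 other settings, against 12 for Vpreb2, 11 for Igll1 and 10 for Vpreb1. Without deleted 4 the log2 changes were smaller, at -3.29 for Igll1, -2.15 for Vpreb1, -2.89 for Vpreb2 and -2.51 for Vpreb3.

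Whether the surrogate light chain genes changed by a different amount from the signalling chains was tested array by array, for 8 pairs of 1 lower gene and 1 signalling chain. The difference between Igll1 and Cd79a, set against its control mean, was 1.04 and -1.04 in controls 3 and 6, and -6.32, -3.81 and -3.05 in deleted 4, 5 and 7. The mean difference of change was -4.40 for Igll1, -2.94 for Vpreb1, -3.67 for Vpreb2 and -3.14 for Vpreb3 against Cd79a. Against Cd79b the values were -4.35, -2.88, -3.62 and -3.09. An exact permutation test over the 5 arrays, two-sided, cannot go below 0.1. It gave that value for 5 of the 8 pairs and 0.2 for the other 3, which were Igll1, Vpreb1 and Vpreb2 against Cd79b (0.16 and 0.2 adjusted over the 8 pairs). In all 8 pairs the deleted arrays lay below both controls, as did 8.32% of all tested genes set against Cd79a and 14.2% set against Cd79b.

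The lower members varied more between deleted cultures than most genes. The SD over the 3 deleted arrays was 1.98 for Igll1, 1.37 for Vpreb1, 1.47 for Vpreb2 and 1.08 for Vpreb3, against a median of 0.22 over all tested genes. Only 0.544%, 2.01%, 1.65% and 3.99% of genes had a larger SD than these. Cd79a and Cd79b had SDs of 0.30 each. Against the control mean Igll1 stood at log2 differences of -6.57, -3.87 and -2.72 in deleted 4, 5 and 7. Vpreb1 was 22.2-, 5.39- and 3.65-fold lower on the same arrays. For Vpreb2 the values were 36.7-, 11.4- and 4.84-fold and for Vpreb3 20.6-, 6.48- and 5.01-fold. All 6 lower probes therefore ranked the deleted arrays the same way, with deleted 4 lowest and deleted 7 highest. That order was found in 12.7% of all tested genes and in 34.4% of the 1173 genes that were lower past the threshold.

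Genes of the cell division cycle were set beside the same arrays. Against the control mean, the mean of 15 tested cell cycle genes was -2.67, -1.39 and -0.75 in deleted 4, 5 and 7, and 0.47 and -0.47 in controls 3 and 6. Of these genes 2 were lower, 0 higher and 13 did not pass, against 8.74% of all tested genes called lower. The 2 were Cdk1, the mitotic kinase, and Ccnb2, a mitotic cyclin, which had limma adjusted p = 0.030 and 0.048. Ccnb2 lost its call in 10 of 17 other settings and Cdk1 in 5, without control 3, control 6 or deleted 5 among them in both cases. The list was not uniform in size of change, though 13 of the 15 genes had a negative log2 change. The mitotic genes Mki67 and Ccna2 had log2 changes of -3.27 and -3.10 (limma adjusted p = 0.070 and 0.061). Among replication genes, Mcm2 and Mcm3 had 0.25 and 0.26 (adjusted p = 0.43 and 0.64). Mcm4, Mcm5, Mcm6 and Pcna had -0.44, -0.40, -0.76 and -0.47 (adjusted p = 0.38, 0.47, 0.15 and 0.16). The summed level of the list, linear and relative to the 75th percentile, was 158 to 292 in controls and 87.9 to 152 in deleted arrays. Its part in the fall of the surrogate light chain genes was not tested.

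**Figure D3:**
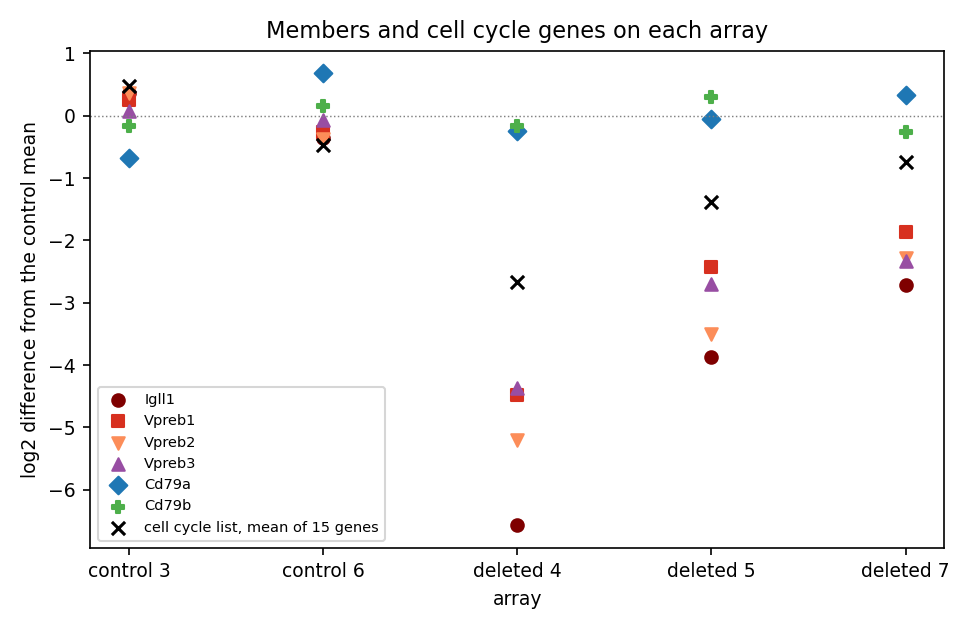
Log2 difference of each member and of the mean of 15 cell cycle genes from its control mean, on each of the 5 arrays. Igll1, Vpreb1, Vpreb2 and Vpreb3 are lowest in deleted 4 and highest of the deleted arrays in deleted 7, as is the cell cycle mean, while Cd79a and Cd79b stay within 0.68 of 0 on every array.

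The 5 tested genes outside the complex with the array profile most like that of Igll1, by the root mean square difference over 5 arrays after centring each gene, were Pimreg (0.15), Neil3 (0.29), Trem1 (0.30), Sapcd2 (0.34) and Cenpf (0.35). Within the complex, the difference between Igll1 and Vpreb2 was 0.50, and those to Vpreb1 and Vpreb3 were 0.82 and 0.86. The profiles of Vpreb1 and Vpreb3 were the closest pair of lower members, at 0.24. Without deleted 4 none of these 5 genes was among the 5 most like Igll1. For Cd79a the 5 most alike were Pcdha9 (0.08), Agrn (0.14), Pou3f1 (0.14), Ankrd60 (0.16) and Plekhg1 (0.16). Without control 3 none of them was among the 5 most like Cd79a.

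The arrays fell into 2 kinds by Xist, the RNA that coats an inactive X chromosome, a label the samples do not carry. Xist was high in control 6 and deleted 7 (levels of 4.67 and 4.24) and at -6.27 or lower on the other arrays. Within the pair high in Xist, Igll1 was lower in the deleted array by a log2 difference of -2.35. Between control 3 and the mean of deleted 4 and 5 the difference was -5.58. The same values were -1.61 and -3.71 for Vpreb1, -1.91 and -4.72 for Vpreb2, and -2.25 and -3.60 for Vpreb3, so the direction held in both kinds. With Xist as a block, Igll1 had a log2 change of -4.20 (limma adjusted p = 0.051) and Vpreb1 one of -2.81 (adjusted p = 0.062), and these 2 calls were lost. Cd79a differed by -0.34 and 0.53, and Cd79b by -0.42 and 0.23.

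Igll1 and Vpreb1 are next to each other on chromosome 16, with 0 annotated genes between them, and Vpreb2 lies on the same chromosome beyond 35 protein-coding genes. The gene order is that of RefSeq on GRCm38.p6, with no build for the arrays given in the sources used here. Of the 30 different genes that were the 3 nearest tested ones on each side of a member, 9 were lower and 3 higher, against 8.74% and 8.58% of all tested genes, with a median log2 change of -0.12 against 0.10 over all genes. At the Igll1 and Vpreb1 locus, Dnm1l, a mitochondrial fission gene, had a log2 change of 0.07 (limma adjusted p = 0.82), though its sign turned without scaling. On the other side Top3b, a topoisomerase gene, had one of -0.40 (95% interval -0.76 to -0.03, adjusted p = 0.13). Its deleted arrays all lay below both controls, as at 21.2% of tested genes. Ppm1f, a phosphatase gene further out, fell by 0.59 (SE 0.14, adjusted p = 0.038), and Ypel1 by 2.08 (SE 0.29, adjusted p = 0.0060). Ppm1f lost its call in 7 of 17 other settings, among them those without control 3, control 6, deleted 4 or deleted 7 (adjusted p up to 0.20). The nearest tested gene on each side of the pair did not pass, while Igll1 and Vpreb1 did. Such a contrast of calls does not show that the genes differ, and that difference was not tested.

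Around Vpreb2 the next genes on one side, Dgcr6 and Prodh, a proline dehydrogenase gene, fell by 2.09 (SE 0.20) and 1.80 (SE 0.18) on the log2 scale (limma adjusted p = 0.0020 and 0.0023). The nearest gene on the other side, Slc25a1, had a log2 change of -0.80 (adjusted p = 0.064). Vpreb3 on chromosome 10 had Chchd10 and Mmp11, a matrix metalloproteinase gene, on 1 side. Mmp11 fell by 2.67 (SE 0.19, adjusted p = 0.00092) and Chchd10 by 1.99 (SE 0.35, adjusted p = 0.014), and Zfp280b on the other side had a log2 change of 0.02. Chchd10 stood at 7.72 and 7.87 in controls and 5.06, 6.09 and 6.25 in deleted 4, 5 and 7, which is the order of the arrays seen at Vpreb3. Chchd10 did not pass without control 3 or without control 6 (adjusted p up to 0.077).

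The gene next to Cd79b on chromosome 11, Gh, which encodes growth hormone, fell while Cd79b did not pass. Gh stood at -0.28 and 1.09 in the controls and -4.13, -3.93 and -3.57 in deleted 4, 5 and 7. The groups did not overlap, with a log2 change of -4.29 (SE 0.42, limma adjusted p = 0.0022), which lay close to that of Igll1. On the other side of Cd79b the adhesion gene Icam2 rose by 0.73 (SE 0.20, adjusted p = 0.049). Near Cd79a on chromosome 7, the ribosomal protein gene Rps19 had a log2 change of -0.03, Rabac1 rose by 0.94 (SE 0.21, adjusted p = 0.028) and Grik5, a glutamate receptor gene, fell by 1.28 (SE 0.29, adjusted p = 0.029). Icam2 lost its call in 9 of 17 other settings, Rabac1 in 6 of 17 and Grik5 in 6 of 16, and for all 3 these included leaving out control 3, control 6, deleted 4 or deleted 5 (adjusted p up to 0.26, 0.18 and 0.17).

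**Figure D4:**
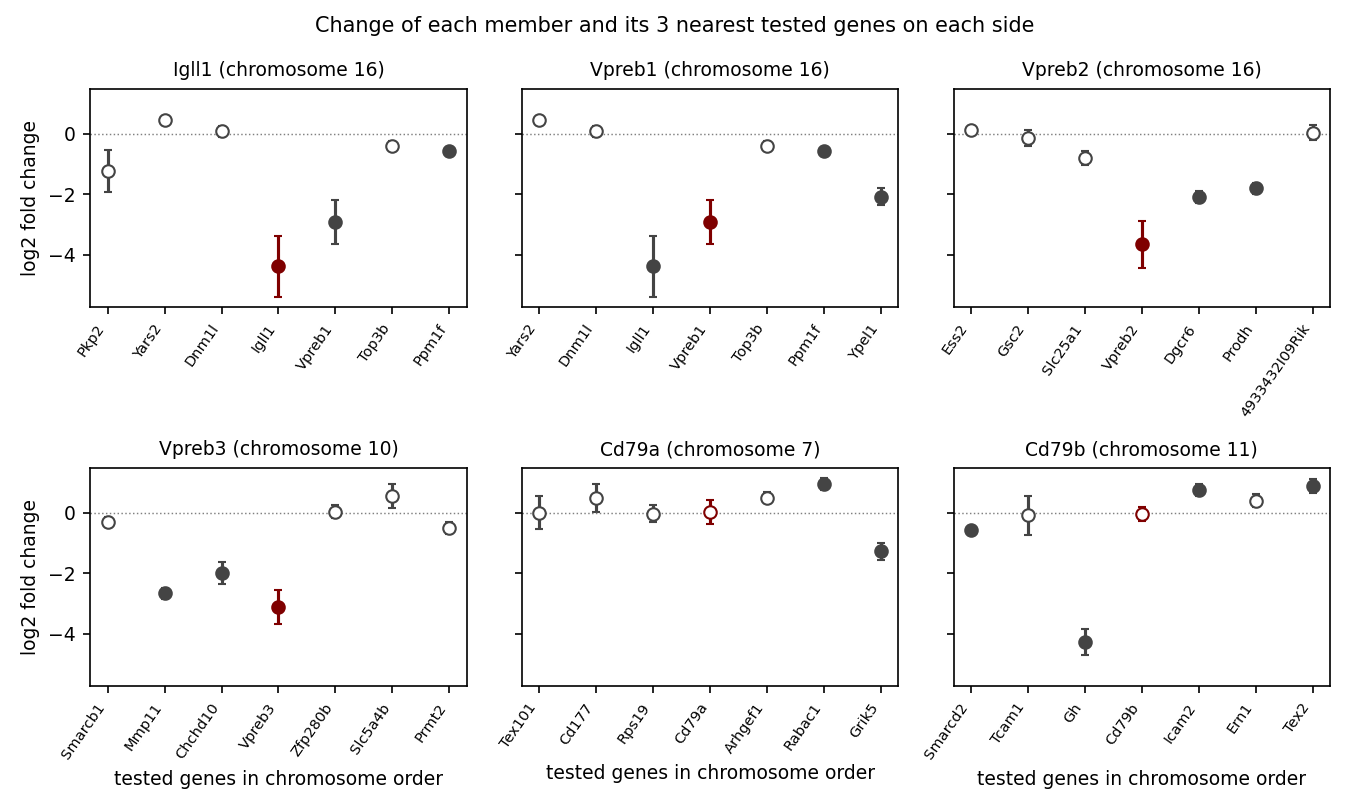
Log2 fold change, deleted minus control, of each member (dark red) and of the 3 nearest tested genes on each side in chromosome order, with bars of 1 standard error. Filled points passed an adjusted p of 0.05; Igll1 and Vpreb1 lie lower than the genes that flank the pair, and Gh lies at -4.29 beside Cd79b at -0.04.

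Other genes of the receptor pathway moved in both directions. Of 24 tested genes in a list of receptor chains, kinases, adaptors and co-receptors, 7 were higher, 3 lower and 14 did not pass, against 17.3% of all genes called in either direction. The median log2 change of the list was 0.28, against 0.10 over all genes. Cd72, an inhibitory co-receptor, fell by 2.52 (SE 0.23, limma adjusted p = 0.0019) on the log2 scale. Pik3ap1, an adaptor for PI3-kinase, fell by 1.2 (SE 0.24, adjusted p = 0.020). Zap70, a kinase of the Syk family, fell by 1.47 (SE 0.35, adjusted p = 0.035), from a dim level of -2.38.

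The higher members of the list included both positive and negative parts of the pathway. Bank1, a scaffold protein of B-cell receptor signalling, stood at -0.16 and 0.66 in the controls and 2.41, 3.33 and 2.54 in deleted 4, 5 and 7. Its log2 change was 2.51 (SE 0.35, limma adjusted p = 0.0061). Ptpn6, the phosphatase SHP-1, which restrains receptor signalling, rose by 1.54 (SE 0.19, adjusted p = 0.0040) at its brightest probe. Malt1, part of a complex that links the receptor to NF-kappaB, rose by 1.01 (SE 0.23, adjusted p = 0.030). The mean of the Ptpn6 probes gave 0.87 (adjusted p = 0.073), and Malt1 and Zap70 each lost their call when control 3, control 6, deleted 4 or deleted 5 was left out. Pik3ap1 did not pass without control 3 or without deleted 5 (adjusted p up to 0.11).

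The heavy chain and several kinases of the pathway were looked at after their values were seen. Ighm, which encodes the mu heavy chain that the surrogate light chain pairs with, stood at 9.25 and 9.33 in the controls and 9.49, 9.85 and 9.24 in deleted 4, 5 and 7. The groups overlapped, with a log2 change of 0.23 (95% interval -0.33 to 0.79, limma adjusted p = 0.53), and its sign turned with quantile normalization. Over all 12 tested Ighm features, most of them annotated to 1 transcript, the log2 change ranged from -0.29 to 0.23 and 0 passed. Syk, the kinase that binds the signalling chains, had a log2 change of 0.13 (adjusted p = 0.74) and Btk one of -0.15 (adjusted p = 0.69). The kinases Blk and Fyn of the same list had log2 changes of -1.16 and -0.58 (adjusted p = 0.065 and 0.16). At Blk the deleted arrays all lay below both controls, and at Fyn the groups overlapped. Blnk, the adaptor below Syk, had a log2 change of -0.55 (adjusted p = 0.074).

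Of 23 tested transcription factors known to act on early B-cell genes, 8 were lower, 1 higher and 14 did not pass, against 8.74% of all tested genes called lower and 8.58% higher, with a median log2 change of -0.28 against 0.10 over all genes. The list was drawn up with earlier results of these data known. Ebf1, the deleted gene, counted among the 14 through its brightest probe, while another of its probes fell by 3.02 (SE 0.35). The E2A gene Tcf3 fell by 1.61 (SE 0.21, limma adjusted p = 0.0052), from 5.80 and 5.68 in the controls to 3.80, 4.47 and 4.11 in deleted 4, 5 and 7. Id2, an inhibitor of E proteins, fell by 1.63 (SE 0.20, adjusted p = 0.0043). The progenitor factor Myb fell by 1.55 (SE 0.24, adjusted p = 0.0093) and the Oct co-activator Pou2af1 by 1.52 (SE 0.27, adjusted p = 0.014). Lef1 and Sox4, high-mobility-group factors of early lymphocytes, fell by 1.25 (SE 0.20) and 1.24 (SE 0.18), with adjusted p = 0.010 and 0.0066. Myb, Pou2af1 and Lef1 did not pass without control 3, nor Pou2af1 without control 6 (adjusted p up to 0.065, 0.090 and 0.073).

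The higher factor, named after its values were seen, was Myc, a growth regulator, which rose by 1.24 (SE 0.20, limma adjusted p = 0.011). Pax5, the commitment factor of the B lineage, had a log2 change of -0.53 (95% interval -1.13 to 0.06, adjusted p = 0.19). Ikzf3, which encodes Aiolos, a known repressor of Igll1, had one of 0.34 (adjusted p = 0.38), and its sign turned without control 3. Ikzf1, which encodes Ikaros, had one of -0.28 (adjusted p = 0.24). By their brightest probes, the log2 changes of the factors called lower lay between -1.63 and -1.02, against -4.39 to -2.92 for the 4 lower receptor component genes.

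**Figure D5:**
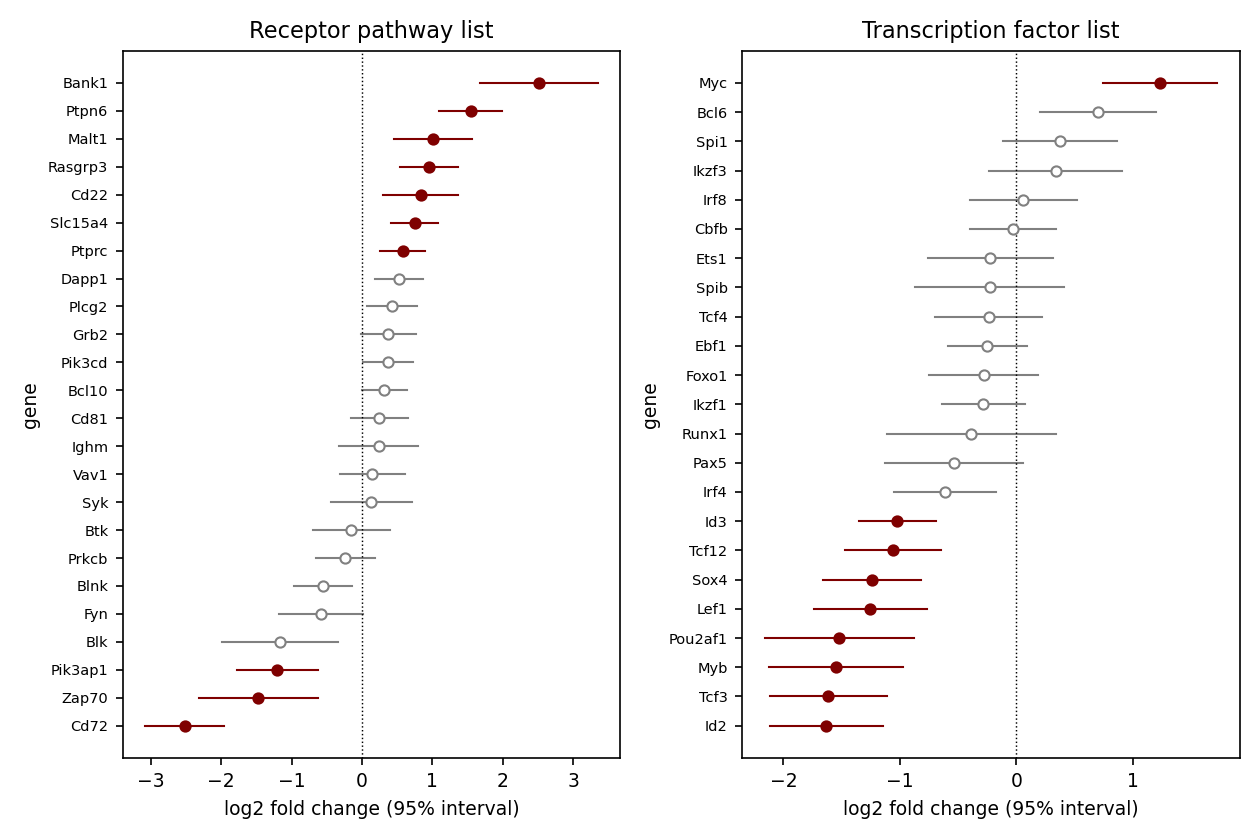
Log2 fold change, deleted minus control, with 95% intervals, of the tested genes in the receptor pathway list (left) and the transcription factor list (right). Filled points passed an adjusted p of 0.05, 7 higher and 3 lower on the left and 1 higher and 8 lower on the right. Each gene, Ebf1 included, is shown by its brightest probe.

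Sums of intensity lay between 66780400 (deleted 5) and 79527100 (deleted 7) and the 75th percentile used for scaling between 305.5 and 430.4 on the same arrays, and the number of arrays limits the precision. Of 9 pro-B cell markers with a named probe, all were above the 40th percentile on all 5 arrays. In deleted cells 6 were lower, against 8.74% of all tested genes, and Igll1 and Vpreb1 among them are members. The others were Il7r, Dntt, Rag2 and Rag1, with log2 changes of -3.86, -2.85, -1.38 and -1.33 (limma adjusted p = 0.0059, 0.0015, 0.0255 and 0.0028). Pax5, Blnk and the member Cd79a did not pass. Among 4 later B-cell markers 2 were higher and 0 lower, against 8.58% of all tested genes called higher. The 2 were Ms4a1, which encodes CD20 (limma adjusted p = 0.0014), and Fcer2a, which encodes CD23 (adjusted p = 0.025). Cr2 and Cd40 did not pass, with log2 changes of -0.05 and -0.94. The list's summed level was 3.00 to 5.43 in controls and 22.5 to 31.3 in deleted arrays, and most of it was Ms4a1. Fcer2a lost its call in 5 of 17 other settings, those without control 3, deleted 4, deleted 5 or deleted 7 among them. Of stromal markers 1 of 4 tested was higher, Sparc, with the list's summed level at 0.69 to 0.78 and 1.12 to 1.42, and Postn and Dcn were at or below the 40th percentile on every array. NK markers had 2 of 3 tested lower (summed level 0.92 to 1.55 and 0.20 to 0.25), with Ncr1 and Eomes at or below that percentile on every array. Myeloid markers had 1 of 3 tested lower, Itgam (limma adjusted p = 0.049). The list's summed level was 4.35 to 14.7 in controls and 2.25 to 2.75 in deleted arrays. Most of that sum was Lyz2, which did not pass (adjusted p = 0.055), and Elane was at or below that percentile on every array. Of T cell markers 1 of 4 tested was higher, Cd3g (0.16 to 0.20 and 0.28 to 0.31), and Cd8a was at or below it. Dendritic cell markers had 1 of 4 tested lower, Flt3 (0.61 to 0.63 and 0.51 to 0.59), with Siglech at or below it, and erythroid markers 0 of 2 (0.086 to 0.13 and 0.077 to 0.12), with Klf1 at or below it. The part of these markers in the results above was not tested.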

How the data were processed

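The authors deposited 1 linear intensity for each array feature. The submitters' processing notes name Agilent Feature Extraction, of which no version was given in the sources used here. Features were named through the platform annotation. Intensities were log2-transformed and scaled by subtracting the array's own 75th percentile. Genes were represented by their brightest probe. A probe was tested if it lay above its array's 40th percentile on at least 2 of 5 arrays. The 2 control and 3 deleted arrays were tested by linear models (limma 3.58.1 under R 4.3.3, lmFit and a trended eBayes, two-sided) with Benjamini-Hochberg adjustment at 0.05, once over genes and once over probes. All adjusted p-values come from these limma fits. The code was tested on simulated data.

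The members and lists were chosen with earlier results of these data known. Named genes were all member and Ebf1 probes, up to 6 called genes per list with the largest fold change, the 5 genes most like Igll1 and Cd79a, and the 3 nearest tested genes on each side of a member. Other names were chosen after their values were seen. Alternatives covered scaling, filters, a floor on dim values, variance models, array weights, probe averaging, Xist as a block and leaving out each array.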

Additional observations from a re-analysis of the deposited data

How the results depend on the processing

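No paired analysis was possible because the labels state no pairing of control with deleted samples. Under 17 other settings the log2 fold change stayed negative for Igll1 (-5.22 to -3.29, adjusted p up to 0.17), Vpreb1 (-3.45 to -2.15, up to 0.19), Vpreb2 (-4.35 to -2.89, up to 0.14) and Vpreb3 (-3.54 to -2.51, up to 0.089). Called member genes numbered 4 as reported, 1 without the variance trend, 1 with robust variances and 2 with Xist as a block, and called member probes 6 as reported and 3 without the trend. With Xist as a block 1483 genes and 2143 probes were called, against 2324 and 3290. Leaving out each array in turn gave 0 to 4 member genes, 0 to 6 member probes, 702 to 2003 genes, 933 to 2729 probes, 4 to 8 pathway genes, 5 to 10 transcription factors and 8 to 8 pairs without overlap.

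Signs turned as follows, and the cause was not tested. Cd79a gave -0.033 with quantile normalization, -0.12 without scaling, -0.054 with array weights and -0.67 to 0.69 leaving out each array in turn. Cd79b gave 0.014 with median scaling and -0.21 to 0.12 leaving out each array. Ighm gave -0.14 with quantile normalization. Leaving out each array gave -0.26 to 0.53 for Syk, -0.064 to 0.74 for Ikzf3, -0.25 to 0.070 for Btk and -0.060 to 0.21 for Dnm1l, which was -0.058 without scaling. Tex2, called higher as reported (0.88, adjusted p = 0.040), gave -0.14 as the mean of its probes. The number of arrays, 5, limits the precision.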
